A study of Mus musculus with 16 samples.

Results

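Uninjured deep digital flexor tendons of MRL/MpJ (MRL) mice differed from those of C57BL/6J (C57) mice in genes of cartilage matrix. They also differed in regulators of the Wnt pathway and in genes of the major histocompatibility complex (MHC) and complement. Of 23 cartilage genes tested, 9 were called higher in MRL and none lower, and of 35 Wnt pathway genes 5 were higher and 1 lower. MHC and complement genes differed in both directions. Of all genes tested, 3.48% were called, 2.07% higher and 1.41% lower. The comparison rests on 6 of the 16 libraries of the series, replicates 1, 2 and 3 of each strain. Those libraries were selected on measured values: replicate 4 of each strain was set aside because strain-dependent genes went against its label, so the p-values of the 3 against 3 fit describe the libraries as selected. A second fit used all 8 uninjured libraries with the labels as given and called no gene, and the 8 libraries of injured tendons gave the same strain contrast in libraries that the uninjured fits do not share.

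C57BL/6J is a standard inbred strain, whose genome sequence is the mouse reference, and MRL/MpJ is an inbred strain known for healing several tissues with little scar. The series held 4 groups of 4 libraries, namely uninjured C57, uninjured MRL, and tendons of each strain at 7 days after a partial laceration. All animals were male, 9 to 11 weeks old and of unmodified genotype as far as the labels give it, and each library came from a single tendon of the third hind digit. Each library holds RNA of tenocytes and of cells from the sheath and other tissue next to the tendon, and fewer cells of a type cannot be told apart from less RNA per cell. Total counts lay between 12975492 and 16829942 in the 6 libraries compared and between 12552424 and 23741648 in all 16, and 3 counts, used here as the floor, were worth 0.128 to 0.237 CPM, which are counts scaled to a common library size.

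Tendon is a rope of type I collagen fibrils laid down by tenocytes, with small proteoglycans and glycoproteins that set fibril diameter and bind growth factors. Where a flexor tendon bends around bone it is pressed as well as pulled, and there its cells can make matrix of a cartilage kind, rich in aggrecan and type II collagen. Wnt proteins act on cells through Frizzled receptors, and secreted inhibitors such as those of the WIF, SFRP and DKK families hold them back. The markers of the labelled tissue were present in all 6 libraries: Scx, the transcription factor that marks tendon cells, measured 105, 96.9 and 126 CPM in C57 replicates 1, 2 and 3 and 163, 171 and 112 CPM in the same replicates of MRL. In what follows, values are given in that order of replicates.

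Whether a library carried the strain of its label was checked with 70 genes chosen from the injured libraries, 49 of them with at most 3 counts in every injured C57 library and at least 20 in every injured MRL library, and 21 the other way round. Of the 49 MRL genes, 1, 5 and 1 had more than 3 counts in C57 replicates 1, 2 and 3, and 49, 48 and 49 did in MRL replicates 1, 2 and 3. The library labelled C57 replicate 4 had 48 of them, and the library labelled MRL replicate 4 had 3. Of the 21 C57 genes, the 3 C57 libraries had 20, 18 and 18, the 3 MRL libraries 2, 2 and 7, the library labelled C57 replicate 4 had 4 and the library labelled MRL replicate 4 had 16. In these 70 genes both replicate 4 libraries thus went against their labels, and neither was moved to the other group. The library labelled C57 replicate 4 also held 11.2% of its counts in 17 epidermis markers, against 0.010% to 0.144% in the other 7 uninjured libraries, and its Spearman correlation across the tested genes with any of them was at most 0.832.

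**Figure D1:**
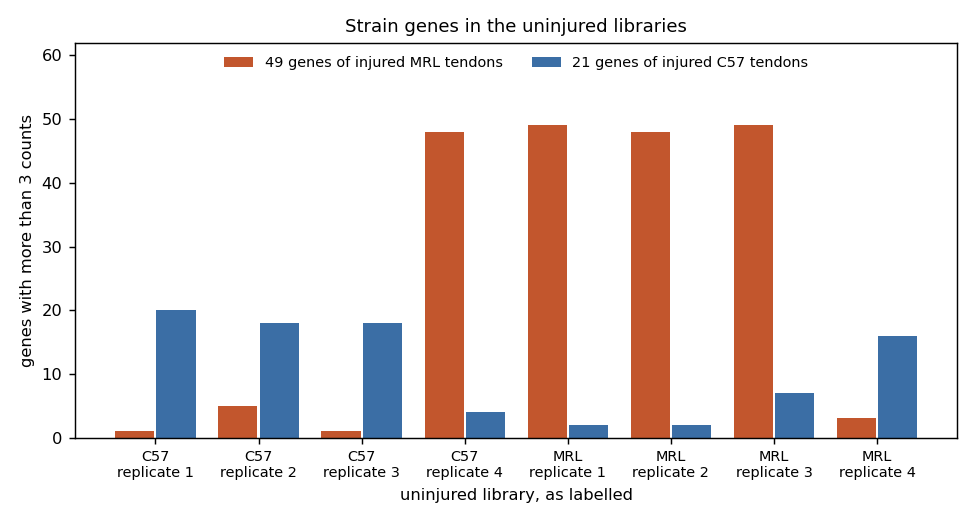
Number of strain genes with more than 3 counts (y axis) in each uninjured library (x axis), for 49 genes of injured MRL tendons (orange) and 21 genes of injured C57 tendons (blue). Replicates 1 to 3 follow their labels, whereas the library labelled C57 replicate 4 shows 48 of the 49 MRL genes and the library labelled MRL replicate 4 shows 3.

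Among 14274 genes tested in replicates 1 to 3 with edgeR's quasi-likelihood test, 497 were called (3.48%), that is, had an adjusted p under 0.05 and differed by more than 1 on the log2 scale. Of these, 296 were higher in MRL (2.07% of the genes tested) and 201 were lower (1.41%). The CPM of the strains did not overlap in any of the 497, a pattern that 3554 of all tested genes showed (24.9%). Outside the 70 genes used for the strain check, 455 calls remained, 264 higher and 191 lower. In the fit of all 8 uninjured libraries as labelled, 0 of 14055 genes were called (0%) by edgeR and 64 by DESeq2, and 1106 genes had an unadjusted p under 0.05 with edgeR. The biological coefficient of variation over all genes was 0.583 in that fit and 0.377 in the fit of 6 libraries. For 446 of the 497 genes the library labelled MRL replicate 4 lay nearer to the mean of the 3 C57 libraries than to that of the 3 MRL libraries, and for 317 the library labelled C57 replicate 4 lay nearer to the MRL mean.

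The count of calls also depended on how the spread was estimated. With the 8 injured libraries added to the fit so that all groups shared 1 estimate of the spread, 295 genes were called in the uninjured contrast, 272 of them among the 497. Leaving out 1 library gave 296 calls without C57 replicate 1, 308 without C57 replicate 2 and 327 without MRL replicate 2, against 348 to 432 without each of the others. In C57 replicate 3, the summed level of 11 neutrophil markers was 140.0 CPM and that of 20 immediate early genes 7035 CPM, against at most 2.44 and 4214 CPM in the other 5 libraries compared. Epidermis markers summed to 1426 CPM in C57 replicate 3 and 1182 CPM in MRL replicate 1, against 105.7 to 223 CPM in the other 4. Their part in the results was not tested beyond leaving out each library.

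**Figure D2:**
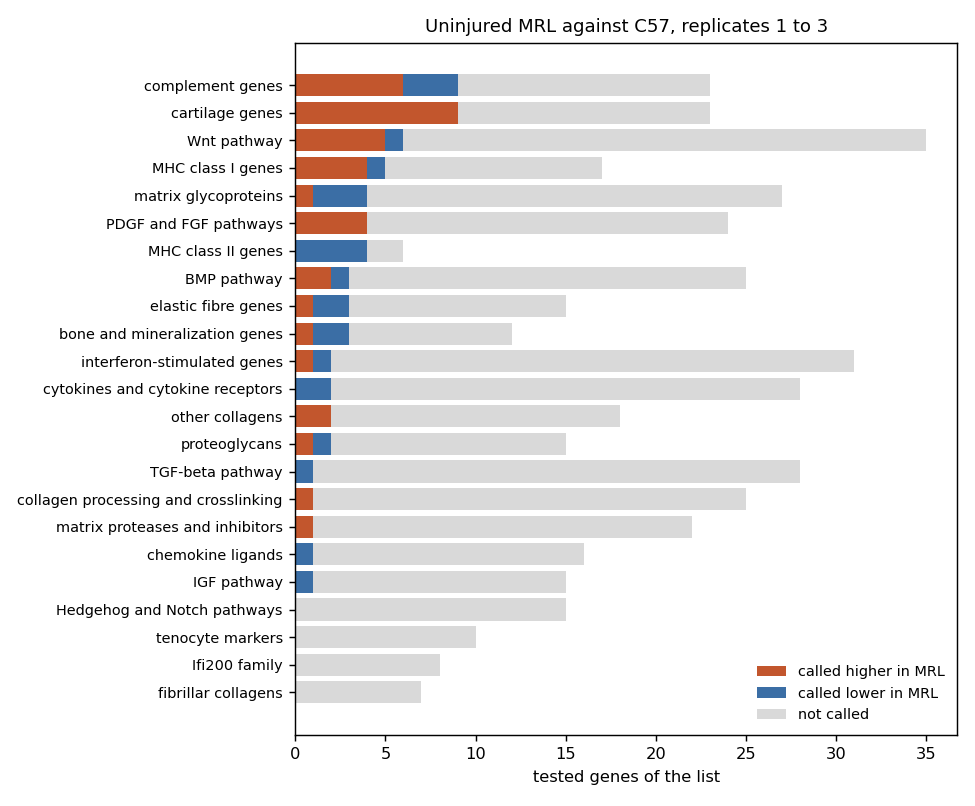
Tested genes (x axis) of each of 23 gene lists (y axis), split into those called higher in uninjured MRL (orange), called lower (blue) and not called (grey), replicates 1 to 3. Complement and cartilage genes lead with 9 called genes of 23 each, all 9 cartilage genes being higher in MRL, and no tenocyte marker or fibrillar collagen was called.

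Cartilage genes stood out by their number and direction. Of 23 tested members, 9 were called higher in MRL (39.1%) and 0 lower, and the median log2 fold change of the list was 1.47 against -0.01 over all genes tested. The clearest was Lect1, which encodes chondromodulin, an inhibitor of vessel growth in cartilage. It measured 5.003, 5.49 and 3.67 CPM in C57 and 77.1, 102 and 55.6 CPM in MRL, with no overlap (log2 fold change 4.03, standard error 0.27, adjusted p = 2.32e-05). Frzb (chromosome 2, 80411970 to 80447625), a secreted Wnt-binding protein first found in cartilage, measured 95.8, 83.4 and 74.5 CPM in C57 and 462, 316 and 361 CPM in MRL (log2 fold change 2.16, standard error 0.16, adjusted p = 5.12e-05). The library labelled MRL replicate 4 had 242 CPM of Frzb and the library labelled C57 replicate 4 had 60.2, so that for this gene all 4 MRL libraries as labelled lay above all 4 C57 libraries (log2 fold change 2.12, adjusted p = 0.0746 in the 4 against 4 fit). Col11a2 (chromosome 17, 34039437 to 34066685), a chain of the type XI collagen that nucleates cartilage fibrils, was low in C57 at 3.27, 4.19 and 2.602 CPM and reached 29.5, 23.5 and 27.3 CPM in MRL (log2 fold change 2.98, standard error 0.29, adjusted p = 0.000275). Ucma, which encodes a small secreted protein of immature chondrocytes, measured 3.603, 5.42 and 2.45 CPM in C57 and 32.2, 40.9 and 25.8 CPM in MRL (log2 fold change 3.09, standard error 0.34, adjusted p = 0.000559). The 3 C57 and 3 MRL libraries did not overlap in any of these 4 genes. That held for all 497 called genes and for 24.9% of all genes tested, so it adds no support to the calls. The summed level of the list did not separate the strains, at 25692 to 32262 CPM in C57 and 27758 to 35575 CPM in MRL, most of it being Comp and Chad.

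The other 5 called cartilage genes fell outside the rule for named genes and are named after their values were seen. Acan, the aggrecan core protein that holds water in cartilage, measured 15.8, 9.42 and 14.6 CPM in C57 and 64.2, 44.9 and 47.7 CPM in MRL (log2 fold change 1.96, standard error 0.25, adjusted p = 0.00153). Col2a1, the chain of type II collagen, measured 17.8, 39.6 and 19.4 CPM in C57 and 140.3, 129.6 and 85.6 CPM in MRL (log2 fold change 2.20, standard error 0.31, adjusted p = 0.00264). Hapln1, the link protein that fixes aggrecan to hyaluronan, rose from 23.8, 25.1 and 22.3 CPM in C57 to 81.3, 46.7 and 70.1 CPM in MRL (log2 fold change 1.47, standard error 0.21, adjusted p = 0.00338). Susd5 was higher by a log2 fold change of 2.07 (adjusted p = 0.000656) and 3110079O15Rik, also named Snorc, by 4.17 (adjusted p = 0.00396). The genes of the chondrocyte transcription factors were not called: Sox9 measured 124, 95.3 and 209.6 CPM in C57 and 243, 257 and 209 CPM in MRL (log2 fold change 0.71, standard error 0.25, adjusted p = 0.146), and Sox5 and Sox6 had log2 fold changes of 0.23 and 0.67. Comp, an abundant matrix protein of tendon and cartilage alike, was higher by 0.92 on the log2 scale (adjusted p = 0.00194), below the fold that counts as a call, and Chad was at 22814, 16694 and 21040.0 CPM in C57 and 16615, 13095 and 10538 CPM in MRL (log2 fold change -0.60, adjusted p = 0.0906).

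With 1 library left out, 9 to 11 cartilage genes were called. With the injured libraries sharing the spread only Lect1 was, and with the labels of all 8 uninjured libraries 0 were. The adjusted p in the shared-spread fit was 0.145 for Frzb, 0.115 for Col11a2 and 0.238 for Ucma.

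The Wnt pathway genes that differed were secreted regulators and 1 receptor. Of 35 tested, 5 were called higher in MRL and 1 lower (17.1%), and none of them was a Wnt ligand or a Frizzled receptor. The summed level of the list was 1658 to 1723 CPM in C57 and 4406 to 5244 CPM in MRL, most of the gap being Wif1. Wif1 (chromosome 10, 121033960 to 121100650), the Wnt inhibitory factor that binds Wnt proteins outside the cell, measured 435, 424 and 473 CPM in C57 and 2462, 3141 and 3399 CPM in MRL (log2 fold change 2.74, standard error 0.13, adjusted p = 3.63e-06). The spread within each strain was small beside the gap, and the call was kept in every fit of replicates 1 to 3. In the libraries labelled replicate 4, Wif1 was at 1241 CPM in C57 and 480.3 CPM in MRL, and the fit of all 8 libraries made no call (log2 fold change 1.85, adjusted p = 0.621).

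Rspo1 and Lgr6, a ligand and a receptor of the R-spondin system that strengthens Wnt signalling, differed in opposite directions and nearly as presence and absence. Rspo1 (chromosome 4, 124986430 to 125009099) measured 0.4003, 0.774 and 0 CPM in C57 and 97.5, 94.5 and 109.7 CPM in MRL (log2 fold change 7.90, standard error 0.45, adjusted p = 9.69e-06). Lgr6 (chromosome 1, 134983301 to 135105276) measured 48.4, 48.2 and 60.4 CPM in C57 and 0.4595, 0 and 0 CPM in MRL (log2 fold change -8.36, standard error 0.64, adjusted p = 5.61e-05). The MRL reads of Lgr6 came from 1 library, and without it, MRL replicate 1, the gene was at 0 in MRL and at least 266-fold lower. The other 5 leave-one-out fits gave log2 fold changes of -8.41 to -7.73. That of Rspo1 lay between 7.39 and 8.82, the latter without C57 replicate 2. In the library labelled MRL replicate 4, Rspo1 was at 0 and Lgr6 at 34.7 CPM, near the C57 libraries. The library labelled C57 replicate 4 had 48.01 CPM of Rspo1 and 8.13 CPM of Lgr6, between the strains for both. Sfrp1 and Dkk2, both secreted inhibitors and both outside the rule for named genes, completed the calls together with Frzb, which both lists hold. Sfrp1 measured 22.7, 26.8 and 24.9 CPM in C57 and 65.6, 51.1 and 60.96 CPM in MRL (log2 fold change 1.24, adjusted p = 0.00234), and Dkk2 16.4, 19.2 and 6.73 CPM in C57 and 58.5, 59.1 and 69.3 CPM in MRL (log2 fold change 2.13, adjusted p = 0.00413). The fit with the injured libraries sharing the spread kept 3 of the 6 calls, those of Wif1, Rspo1 and Lgr6.

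**Figure D3:**
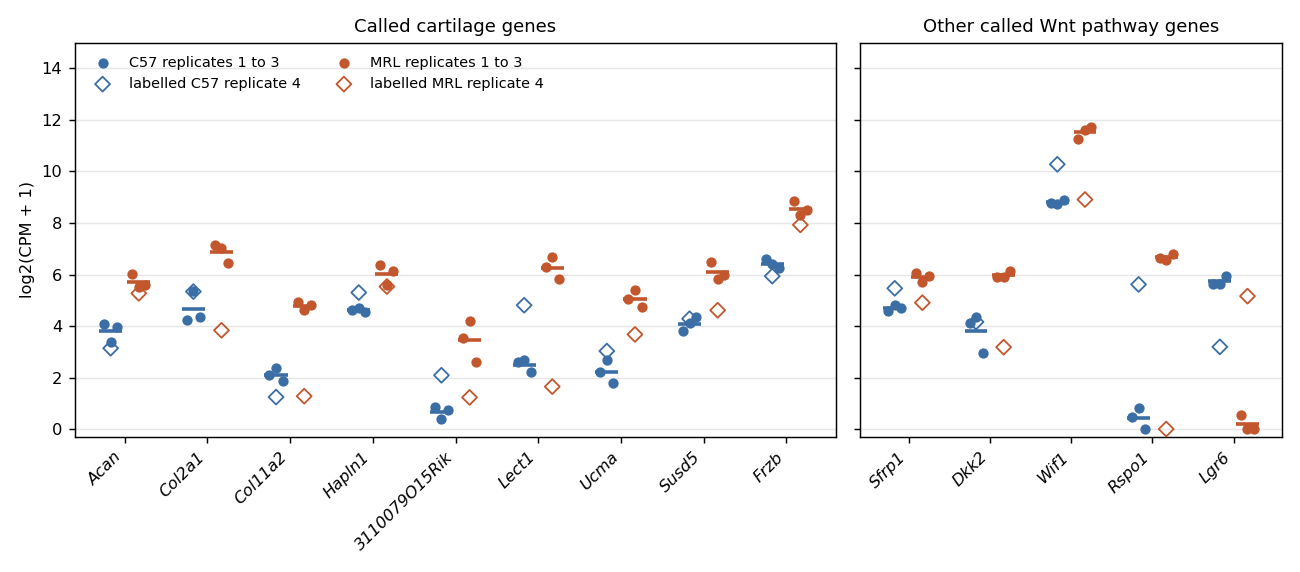
Level of each called cartilage and Wnt pathway gene (x axis) as log2(CPM + 1) (y axis) in uninjured C57 (blue) and MRL (orange) libraries, filled points being replicates 1 to 3, bars their means and open diamonds the libraries labelled replicate 4. Filled points of the strains do not overlap for any gene, which held for all 497 called genes and for 24.9% of all genes tested. Lgr6 is the only one lower in MRL, and for Rspo1 and Lgr6 the MRL diamond lies beside the C57 points.

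No tenocyte marker or fibrillar collagen gene passed both criteria, although the summed levels of these lists did not overlap between the strains. Tenocyte markers summed to 55556 to 59358 CPM in C57 and 74038 to 85337 CPM in MRL, and fibrillar collagens to 14926 to 18230.0 CPM and 20306 to 29239 CPM. Both lists hold Col1a1 and Col1a2, so their sums are not independent. Of all single genes tested, 24.9% did not overlap. The sums were 57756 and 12092 CPM in the library labelled MRL replicate 4. They were 33573 and 8513 CPM in the library labelled C57 replicate 4. Of 10 tenocyte markers and 7 fibrillar collagen genes tested, none was called by edgeR in replicates 1 to 3, although 7 and 4 had an unadjusted p under 0.05, and none was called by DESeq2. Col1a1 measured 4914, 6324 and 5289 CPM in C57 and 10234, 9946 and 5588 CPM in MRL, where replicate 3 lay among the C57 values (log2 fold change 0.63, standard error 0.21, adjusted p = 0.128). Col1a2 measured 4614, 5199.7 and 5255 CPM in C57 and 9579, 10815 and 6820.3 CPM in MRL (log2 fold change 0.84, standard error 0.16, adjusted p = 0.0133), which passed the test but not the fold. Without MRL replicate 3 edgeR called Col1a2 higher in MRL (log2 fold change 1.02, adjusted p = 0.00102). Col1a1 in that fit passed the test but not the fold (log2 fold change 0.87, adjusted p = 0.0044). Scx had a log2 fold change of 0.43 (adjusted p = 0.223), Mkx, a homeobox factor of tendon, -0.03 (adjusted p = 0.965) and Tnmd, the tendon membrane protein tenomodulin, 0.60 (adjusted p = 0.328). These p-values do not show that the strains were alike in them.

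Of 18 other collagen genes tested, 2 were called, both higher in MRL. Col16a1, a fibril-associated collagen, measured 67.2, 73.5 and 60.9 CPM in C57 and 159, 144 and 167 CPM in MRL (log2 fold change 1.21, standard error 0.12, adjusted p = 0.00036). Col8a1, a network-forming collagen of vessel walls and other tissues, measured 29.95, 24.1 and 32.8 CPM in C57 and 84.7, 82.05 and 72.4 CPM in MRL (log2 fold change 1.45, standard error 0.17, adjusted p = 0.000798). Among 15 proteoglycan genes 1 rose and 1 fell. Lum, which encodes the fibril-binding lumican, measured 989.6, 766 and 882 CPM in C57 and 1679, 2478 and 3906 CPM in MRL (log2 fold change 1.60, standard error 0.26, adjusted p = 0.00654), and 3 of the 6 leave-one-out fits no longer called it. Srgn, the proteoglycan of secretory granules in blood cells, measured 61.2, 52.1 and 49.3 CPM in C57 and 15.6, 20.6 and 25.4 CPM in MRL (log2 fold change -1.41, standard error 0.21, adjusted p = 0.00377).

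Matrix glycoproteins went both ways, with 1 of 27 called higher and 3 lower. Cilp, the cartilage intermediate layer protein, an antagonist of TGF-β1, measured 5197, 5626 and 7262 CPM in C57 and 1929.6, 1623 and 2288 CPM in MRL (log2 fold change -1.64, standard error 0.16, adjusted p = 0.000292). Fbln1, which encodes the matrix protein fibulin-1, was the member that was higher in MRL, at 2340.4, 1859 and 1839.6 CPM against 873, 759 and 869 CPM in C57 (log2 fold change 1.26, standard error 0.13, adjusted p = 0.00032). Thbs1, thrombospondin-1, which can activate latent TGF-β, measured 223, 192 and 173 CPM in C57 and 83.4, 96.9 and 95.8 CPM in MRL (log2 fold change -1.10, standard error 0.13, adjusted p = 0.000814), and -0.997 on the log2 scale, no longer a call, without C57 replicate 1. Spp1, osteopontin, measured 5859, 4066 and 6089 CPM in C57 and 2763, 1789 and 2534 CPM in MRL (log2 fold change -1.19, standard error 0.19, adjusted p = 0.00613). For Cilp, Thbs1 and Spp1 the library labelled MRL replicate 4 was above the 3 other MRL libraries and the library labelled C57 replicate 4 below the 3 other C57 libraries, Spp1 being at 8679.8 and 633 CPM.

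Among 15 elastic fibre genes, Ltbp2, a microfibril protein related to those that bind latent TGF-β, measured 23.9, 35.6 and 36.9 CPM in C57 and 4.99, 1.58 and 0.475 CPM in MRL (log2 fold change -3.78, standard error 0.64, adjusted p = 0.00782). Its log2 fold change lay between -5.00, without MRL replicate 1, and -3.28, without MRL replicate 3, and the call ended without C57 replicate 2 (adjusted p = 0.0594) and without MRL replicate 2 (adjusted p = 0.100). Mfap2 and Mfap5, both glycoproteins of microfibrils, were called in opposite directions, Mfap2 higher by 1.81 (adjusted p = 0.0403) and Mfap5 lower, with a log2 fold change of -1.09 (adjusted p = 0.0483). The calls of Mfap2 and Mfap5 were weaker still, since leaving out 1 library ended the call of Mfap2 in all 6 fits and that of Mfap5 in 5. Of 22 matrix proteases and inhibitors 1 was called (4.55%, beside 3.48% of all genes tested), which was Mmp2 (chromosome 8, 92827291 to 92853420), the gelatinase that cleaves denatured collagen, at 155, 151 and 143 CPM in C57 and 409, 595 and 570.4 CPM in MRL (log2 fold change 1.80, standard error 0.14, adjusted p = 7.52e-05). P3h3, which belongs to the collagen prolyl 3-hydroxylase family, was called as 1 of 25 collagen processing genes (4%) (log2 fold change 1.03, standard error 0.15, adjusted p = 0.00317), and its log2 fold change fell under 1 in 3 of the 6 leave-one-out fits (0.93 to 0.99).

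In the list of bone and mineralization genes, 1 of 12 was called higher and 2 lower, Spp1 among them. Ibsp, bone sialoprotein, measured 20.5, 23.2 and 45.99 CPM in C57 and 125, 226 and 115 CPM in MRL (log2 fold change 2.37, standard error 0.36, adjusted p = 0.00516), a call that ended without C57 replicate 2 (adjusted p = 0.0704). Mgp, matrix Gla protein, an inhibitor of calcification, measured 244, 192 and 271 CPM in C57 and 24.4, 63.3 and 65.1 CPM in MRL (log2 fold change -2.22, standard error 0.33, adjusted p = 0.00568). The strains did not overlap in Mgp, as in every called gene. Its call was lost without C57 replicate 1 (adjusted p = 0.0508) and without MRL replicate 2 (adjusted p = 0.0521). Among the matrix genes named so far, the shared-spread fit kept the calls of Col8a1, Lum, Cilp, Ltbp2, Mmp2 and Mgp. It did not keep those of Col16a1, Srgn, Fbln1, Thbs1, Spp1, Mfap2, Mfap5, P3h3 and Ibsp. With no filter on low counts the calls of Lum, Spp1, Ltbp2, Mfap5, Ibsp and Mgp ended (adjusted p 0.0535 for Mfap5 to 0.165 for Lum, and 0.125 for Ibsp).

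Growth factor lists differed in their share of calls, against 3.48% of all genes tested. In the TGF-β list 1 of 28 genes was called (3.57%), which was Ltbp2, and Tgfb1 itself measured 55.6, 37.1 and 50.6 CPM in C57 and 29.1, 32.4 and 29.1 CPM in MRL (log2 fold change -0.68, standard error 0.19, adjusted p = 0.0796), which missed the threshold. In the BMP list 2 of 25 were called higher and 1 lower (12%). Grem1, which encodes the BMP antagonist gremlin, measured 38.7, 32.6 and 34.7 CPM in C57 and 179, 82.4 and 152 CPM in MRL (log2 fold change 1.96, standard error 0.25, adjusted p = 0.00167). Gdf10, a secreted member of the BMP family, measured 27.6, 40.8 and 29.1 CPM in C57 and 103, 73.2 and 155 CPM in MRL (log2 fold change 1.76, standard error 0.26, adjusted p = 0.00392). Bmp4 was lower in MRL, at 53.2, 28.5 and 36.2 CPM against 85.5, 79.4 and 84.8 CPM in C57 (log2 fold change -1.09, standard error 0.21, adjusted p = 0.0165), a call that 5 of the 6 leave-one-out fits did not make.

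All 4 calls among 24 PDGF and FGF pathway genes (16.7%) were higher in MRL. Pdgfc, a ligand of the PDGF receptors, was the firmest, at 52.3, 63.6 and 48.4 CPM in C57 and 124, 119.7 and 139.6 CPM in MRL (log2 fold change 1.21, standard error 0.14, adjusted p = 0.000814). Pdgfd, another such ligand, was higher by 1.33 on the log2 scale (adjusted p = 0.0232), Fgfr3, the FGF receptor of growth cartilage, by 1.85 (adjusted p = 0.0251), and Etv4, a transcription factor induced by FGF signals, by 1.09 (adjusted p = 0.0449). The shared-spread fit kept Pdgfc alone of the 7 named BMP, PDGF and FGF genes. For each of Pdgfd, Fgfr3 and Etv4, between 4 and 6 of the 6 leave-one-out fits made no call. In the IGF list 1 of 15 was called: Igfbp3, a carrier of IGF, measured 9.01, 8.32 and 14.4 CPM in C57 and 0.0656, 0 and 1.54 CPM in MRL (log2 fold change -4.25, standard error 1.07, adjusted p = 0.0488), and DESeq2 gave it an adjusted p of 0.0692. Without MRL replicate 3, 1 count was left in MRL, and the ratio of C57 to MRL was 303 (95% exact binomial interval, for counting error only, 54.1 to 11982). The other 5 leave-one-out fits gave log2 fold changes of -4.41 to -3.70 and made no call. None of 15 Hedgehog and Notch pathway genes was called with edgeR, 2 having an unadjusted p under 0.05, and 1 was called with DESeq2. That gene, also the one with the smallest p in edgeR, was Hey1, a target of Notch, at 4.47, 1.68 and 4.74 CPM in C57 and 0.788, 0.0718 and 0 CPM in MRL (adjusted p = 0.143), and DESeq2 gave it an adjusted p of 0.0188. Without MRL replicate 1, which left 1 and 0 counts in MRL, edgeR called Hey1 lower too (adjusted p = 0.0382).

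Most MHC class II genes tested were lower in uninjured MRL. These genes present peptides on macrophages, dendritic cells and B cells, and 4 of the 6 tested members were called, all lower (66.7%). H2-Ab1 measured 38.96, 24.8 and 22.3 CPM in C57 and 1.12, 4.59 and 9.15 CPM in MRL (log2 fold change -2.54, standard error 0.58, adjusted p = 0.0322), a fold change of -3.34 on the log2 scale without MRL replicate 3. H2-Aa, which encodes the partner chain of the same molecule, measured 22.1, 16.3 and 17.3 CPM in C57 and 3.61, 7.54 and 5.94 CPM in MRL (log2 fold change -1.72, standard error 0.34, adjusted p = 0.0165). H2-Eb1 measured 18.7, 13.1 and 11.02 CPM in C57 and 1.44, 2.94 and 3.51 CPM in MRL (log2 fold change -2.45, standard error 0.43, adjusted p = 0.00952). Cd74, the invariant chain that escorts class II molecules and lies on another chromosome than the H2 genes, measured 75.2, 45.8 and 43.6 CPM in C57 and 11.4, 21.03 and 31.4 CPM in MRL (log2 fold change -1.38, standard error 0.35, adjusted p = 0.0485). The other 2 tested members were not called and had log2 fold changes above 0, H2-DMa at 1.33 (adjusted p = 0.241) and H2-DMb1 at 0.01 (adjusted p = 0.997), both parts of the machinery that loads peptides. The class II calls were fragile: none was left without C57 replicate 1, with the replicate block or in the shared-spread fit, 1 each without C57 replicate 2 or 3, and 2 without MRL replicate 2. Macrophage markers summed to 1655 to 2096 CPM in C57 and 1154 to 1913 CPM in MRL, with 1 of 18, Cd14, called lower. B cell markers summed to 1.53 to 4.67 and 10.96 to 21.2 CPM, T and NK cell markers to at most 1.96 CPM in any of the 6 libraries. In the library labelled C57 replicate 4, which held the epidermis RNA, Cd74 was at 298 CPM. The part of any of these cells in the result was not tested. The reads of both strains were mapped to the C57BL/6J genome, and the part of mapping in the counts of these H2 genes was not tested either.

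MHC class I genes, which nearly every cell uses to present its own peptides, split by locus. H2-D1 (chromosome 17, 35262730 to 35267499) measured 1502, 1522 and 1788 CPM in C57 and 517, 561 and 477 CPM in MRL (log2 fold change -1.64, standard error 0.11, adjusted p = 2.53e-05). H2-K1 (chromosome 17, 33996017 to 34000347) went the other way, at 155, 138 and 161 CPM in C57 and 422, 421 and 371 CPM in MRL (log2 fold change 1.41, standard error 0.11, adjusted p = 7.73e-05). H2-Q7 had no count in the 3 C57 libraries and measured 12.7, 11.9 and 8.73 CPM in MRL, at least 53.6-fold higher against a floor of 3 counts a library (adjusted p = 0.000401). H2-Q2 was likewise at or near 0 in C57 and at 22.8, 4.16 and 22.2 CPM in MRL, a ratio of 246 (95% exact interval 83.7 to 1193) (adjusted p = 0.00204). H2-Q1, outside the rule for named genes, completed the 5 calls of 17 tested (29.4%). These genes are near-identical copies that differ in sequence between strains, and the reads of both strains were mapped to the C57BL/6J genome, so that level and mapping cannot be told apart for them. In the shared-spread fit H2-D1 stayed called and H2-K1 did not (adjusted p = 0.0849).

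Complement, the serum cascade that tags cells and debris, had 6 of 23 tested genes called higher in MRL and 3 lower (39.1%), with a median log2 fold change of 0.54. C3 (chromosome 17, 57203970 to 57228136), the central component, measured 75.6, 73.2 and 50.05 CPM in C57 and 419, 256 and 441 CPM in MRL (log2 fold change 2.48, standard error 0.23, adjusted p = 0.000198). Masp1, a protease that starts the lectin branch, measured 11.4, 13.2 and 13.9 CPM in C57 and 39.97, 41.3 and 43.3 CPM in MRL (log2 fold change 1.69, standard error 0.19, adjusted p = 0.000692). C1s2 and C1rb, copies of the C1s and C1r protease genes on chromosome 6, had 0 counts and 1 count in the 3 C57 libraries, C1s2 being at least 35.4-fold higher in MRL (adjusted p = 0.00338) and C1rb having a ratio of 152 (95% exact interval 27 to 6058) (adjusted p = 0.00854). Without MRL replicate 3 the bound of C1s2 was 22.96-fold. Their neighbours C1ra and C1s1 were also called higher (log2 fold change 1.15 and 1.56), and reads of such copies can be assigned to either. The 3 called lower were C1qb, a chain of the C1q recognition molecule made by macrophages (log2 fold change -1.15, adjusted p = 0.0208), the receptor gene C5ar1 (log2 fold change -1.44, adjusted p = 0.0146) and C4b, at 75.9, 75.5 and 101 CPM in C57 and 15.2, 11.1 and 35 CPM in MRL (log2 fold change -2.05, standard error 0.37, adjusted p = 0.0102). The 5 genes of this paragraph beyond the first 4 were named after their values were seen. Without C57 replicate 2 only 4 complement genes were called, without C57 replicate 3 only 5, and in the shared-spread fit 4, C3 among them and Masp1 not (adjusted p = 0.0649).

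**Figure D4:**
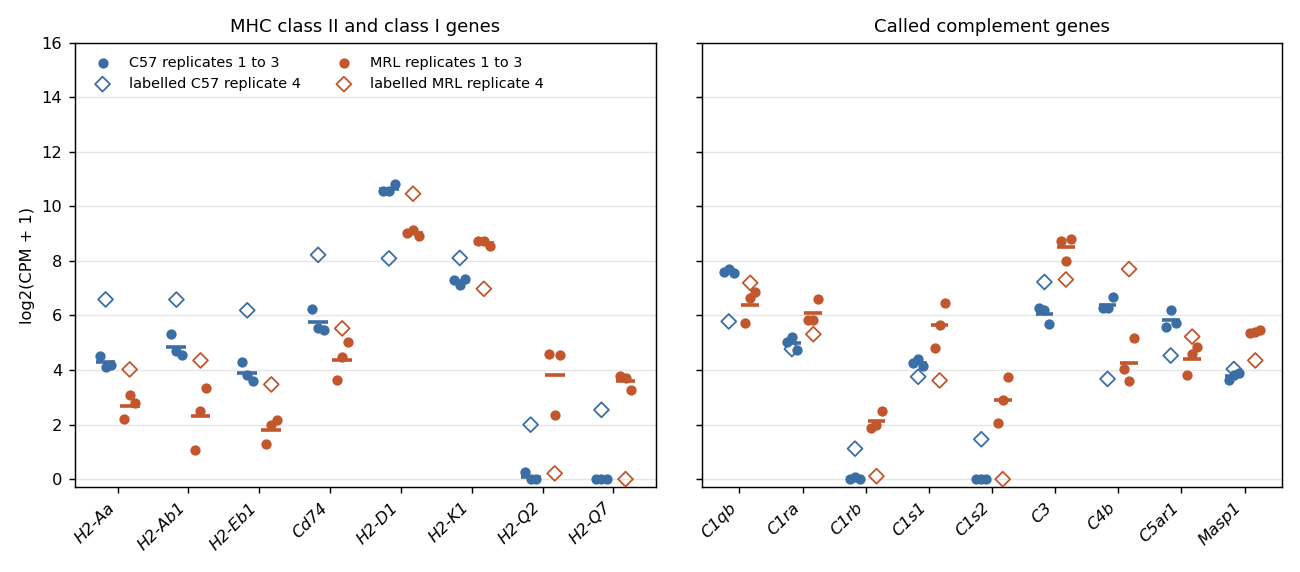
Level of MHC genes (left) and called complement genes (right) as log2(CPM + 1) (y axis) in uninjured C57 (blue) and MRL (orange) libraries, filled points being replicates 1 to 3, bars their means and open diamonds the libraries labelled replicate 4. The class II genes H2-Aa, H2-Ab1, H2-Eb1 and Cd74 and the class I gene H2-D1 were lower in MRL, H2-K1 and C3 were higher, and H2-Q7 and C1s2 were at 0 in the 3 filled C57 points.

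The other immune lists had 0 to 2 calls each, against 3.48% of all genes tested. Of 31 interferon-stimulated genes 1 was higher and 1 lower (6.45%): Isg20, an exonuclease, measured 15.5, 18.7 and 21.3 CPM in C57 and 46.3, 46.7 and 43.3 CPM in MRL (log2 fold change 1.29, standard error 0.19, adjusted p = 0.00343), and Gbp2, a guanylate-binding protein, 35.8, 31.4 and 26.4 CPM in C57 and 14.4, 15.6 and 13.7 CPM in MRL (log2 fold change -1.11, standard error 0.21, adjusted p = 0.0146). None of 8 genes of the Ifi200 family, nuclear sensors of DNA induced by interferon, was called with edgeR or DESeq2, and 0 had an unadjusted p under 0.05 with edgeR. Among them Ifi202b measured 0, 0 and 13.4 CPM in C57 and 2.89, 6.101 and 6.24 CPM in MRL, so that C57 replicate 3 stood apart from the other C57 libraries, and without that library the gene was called higher in MRL (adjusted p = 0.0143). The smallest p of the family was that of Ifi207 (log2 fold change -0.59, adjusted p = 0.622). The call of Gbp2 was lost without C57 replicate 1 or 2 or MRL replicate 1 (adjusted p up to 0.0818). The shared-spread fit lost it too (adjusted p = 0.307) and kept that of Isg20 (adjusted p = 0.00285).

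Cytokine genes had 2 calls of 28 (7.14%), both lower in MRL. Il15, a survival factor for NK and memory T cells, measured 25.6, 34.8 and 38.4 CPM in C57 and 13.5, 16.2 and 18.8 CPM in MRL (log2 fold change -1.04, standard error 0.23, adjusted p = 0.0304), and Tnfrsf11b, osteoprotegerin, the decoy receptor that restrains osteoclasts, 87.5, 36.1 and 80.4 CPM in C57 and 16.7, 29.5 and 30.1 CPM in MRL (log2 fold change -1.43, standard error 0.34, adjusted p = 0.0358). Among 16 chemokine ligands the call (6.25%) was Cxcl2, a chemokine that draws neutrophils, at 2.202, 0.968 and 23.6 CPM in C57 and 0.263, 0 and 0.119 CPM in MRL (log2 fold change -6.03, standard error 1.40, adjusted p = 0.0342). The highest value was in C57 replicate 3, the library with the higher neutrophil and immediate early genes, without that library the log2 fold change was -3.54 (adjusted p = 0.297), and 5 of the 6 leave-one-out fits made no call. Il15 lost its call in 4 of those 6 fits (adjusted p up to 0.130) and Tnfrsf11b in 5 (up to 0.161). The shared-spread fit called none of Cxcl2 (adjusted p = 0.107), Il15 (adjusted p = 0.121) and Tnfrsf11b (adjusted p = 0.580).

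The rule for named genes took 8 rises and 8 falls by the size of the fitted log2 fold change. It took them among calls with a mean of at least 50 normalized counts in the higher group. All 16 were counted in 1 strain and were at or near 0 in the other. A fitted value over 0 is no measured size, so the 16 are not ranked here. Nor are they ranked against Rspo1 and Lgr6, whose fitted folds rest on few counts in 1 strain. The rises held, besides H2-Q7 and C1s2, the processed pseudogenes Gm13394, Gm6304, Gm5611 and Gm14292, the peroxisomal thiolase gene Acaa1b, a near copy of Acaa1a, and the sperm tail gene Odf1. Gm13394 measured 0.0667, 0 and 0.0765 CPM in C57 and 59.01, 70.1 and 60.5 CPM in MRL, a ratio of 1370 (95% exact interval 379 to 11315) (adjusted p = 8.26e-07), and Acaa1b was at 0 in C57 and at 9.12, 8.18 and 9.86 CPM in MRL, at least 43.6-fold higher. The bounds for Gm6304, Gm5611, Gm14292 and Odf1 were 35.9-fold, 29.1-fold, 26.3-fold and 26-fold higher. Pseudogenes were called in 52 of 271 tested, 49 of them higher in MRL, against 405 of 12283 protein-coding genes (19.2% and 3.30%).

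Among the falls, Rab6b, a small GTPase of neurons, was at 15.7, 21.7 and 13.4 CPM in C57 and 0 in the 3 MRL libraries, at least 85.9-fold lower (adjusted p = 0.00017). Hba-a2, 1 of the paired alpha-globin genes, measured 12.6, 4.001 and 10.9 CPM in C57 and 0 in MRL, at least 46.7-fold lower, while erythroid markers as a whole summed to 29.6 to 67.2 CPM in C57 and 16.1 to 109 CPM in MRL. Trim12a, a relative of the antiviral Trim5 family, the growth factor gene Fgf20, the transsulfuration enzyme gene Cbs, Ankrd6, the zinc receptor gene Gpr39 and the desmosomal cadherin gene Dsg2 were also at 0 in all 3 MRL libraries. Their bounds were 42.3-fold, 26.4-fold, 26.5-fold, 25.4-fold, 25.3-fold and 19.95-fold lower in that order. Trim12a measured 5.74, 15.9 and 3.37 CPM in C57, and its bound without C57 replicate 2 was 23.1-fold. Dsg2 measured 0.667, 8.13 and 2.98 CPM in C57, its bound without C57 replicate 2 was 9.28-fold, and it lost its call in 5 of the 6 leave-one-out fits (adjusted p up to 0.133) and with the replicate block (adjusted p = 0.0648). The bound of Ankrd6 without C57 replicate 3 was 13.6-fold, and Fgf20, Ankrd6 and Gpr39 each lost the call in 1 of those 6 fits. The shared-spread fit also ended the call of Fgf20 (adjusted p = 0.0653). It kept those of Ankrd6 (adjusted p = 0.0423) and Gpr39 (adjusted p = 0.0169). In the library labelled MRL replicate 4 all 8 of these genes had counts, Rab6b being at 21.2 CPM and Hba-a2 at 12.1 CPM, and in the library labelled C57 replicate 4 only Cbs and Dsg2 did, at 19.3 and 6.96 CPM.

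Injured tendons gave the strain contrast in 8 other libraries. There 502 of 14626 genes were called (3.43%), 227 higher (1.55%) and 275 lower (1.88%) in MRL. Of the 497 genes called in uninjured tendons, 465 were tested in the injured ones, and 403 had the same sign (86.7%), against 60.6% of the 13607 genes tested in both. The calls shared in the same direction numbered 170, which is 36.6% of the 465 and 33.9% of the injured calls, and 0 were called in the opposite direction. Outside the 70 strain-check genes, whose choice used the injured libraries, 361 of 423 had the same sign (85.3%) and 128 were called in the same direction (30.3%). In 1 injured C57 library 9.24% of the counts fell on skeletal muscle markers, and leaving out each injured library gave 231 to 481 calls.

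**Figure D5:**
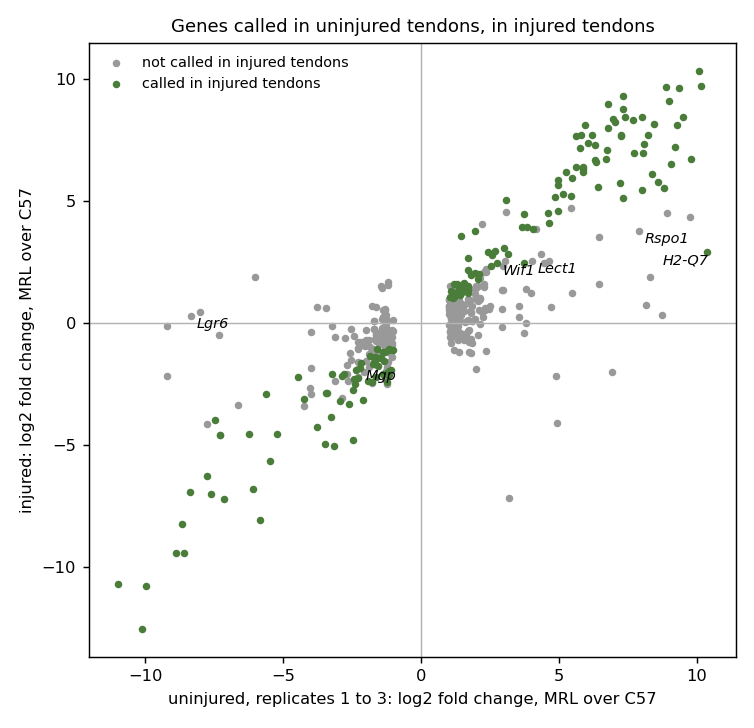
Log2 fold change of MRL over C57 in uninjured tendons, replicates 1 to 3 (x axis), and in injured tendons (y axis) for the 465 genes called in uninjured tendons and tested in both, those also called in injured tendons in green. Of the points, 403 have the same sign on both axes, and Lgr6 lies near 0 on the injured axis.

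Some named genes kept their direction and call in injured tendons. In the Wnt list 1 of 38 genes tested was called higher and 2 lower, with a median log2 fold change of 0.07. In the complement list 2 of 21 were called higher and 4 lower, with a median of -1.10, against 0.54 before injury. Wif1 ranged over 159.5 to 348 CPM in injured C57 and 516 to 3240.5 CPM in injured MRL (log2 fold change 2.47, adjusted p = 0.0311). Lum was at 1082 to 2986 CPM in injured C57 and 4735 to 6943 CPM in injured MRL (log2 fold change 1.48, adjusted p = 0.0258). Masp1 (log2 fold change 2.67, adjusted p = 0.0151), Isg20 (log2 fold change 1.24, adjusted p = 0.0119), Col8a1 (log2 fold change 1.25, adjusted p = 0.0284) and Mgp (log2 fold change -1.84, adjusted p = 0.0239) were also called in the direction they had before injury. In the cartilage list 4 of 24 tested genes were called higher and 1 lower, with a median log2 fold change of 1.36. Acan (log2 fold change 3.78, adjusted p = 0.0272) and Hapln1 (log2 fold change 3.57, adjusted p = 0.00666) were among the higher. Of the complement genes, C1qb (log2 fold change -2.12, adjusted p = 0.0165) and C5ar1 (log2 fold change -1.41, adjusted p = 0.00984) were again lower in MRL, where 3 of 18 macrophage markers were called lower and 0 higher. Other cell types were called lower there too, in 3 of 3 lymphatic endothelium markers (median log2 fold change -7.70), 3 of 10 of blood endothelium (-2.94), 3 of 8 of smooth muscle and pericytes (-3.32) and 2 of 7 of Schwann cells (-3.96), and their part in the injured contrast was not tested. Scx, not called in uninjured tendons, was called higher in injured MRL (log2 fold change 1.18, adjusted p = 0.0162).

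Other genes called before injury were not called after it. None of the 4 named cartilage genes was called in injured tendons with edgeR, though each stayed higher in MRL. They were Lect1 (log2 fold change 2.57, adjusted p = 0.0695), Ucma (4.55, 0.0782), Frzb (1.85, 0.144) and Col11a2 (1.34, 0.383). Rspo1 stayed higher without a call (log2 fold change 3.80, adjusted p = 0.0605). Spp1, lower before injury, had a log2 fold change of 1.57 without a call (adjusted p = 0.166). Lgr6 was at 15.3 to 33.4 CPM in injured C57 and 4.68 to 55.98 CPM in injured MRL (log2 fold change 0.29, adjusted p = 0.861). Mmp2 was at 245 to 737 CPM in injured C57 and 258 to 490.2 CPM in injured MRL (log2 fold change -0.66, adjusted p = 0.322), and Ltbp2 at 95.6 to 192 CPM and 75.8 to 349 CPM (log2 fold change 0.66, adjusted p = 0.406). H2-Aa was at 178 to 218 CPM in injured C57 and 58.1 to 472 CPM in injured MRL (log2 fold change 0.09, adjusted p = 0.944), and none of the 4 class II genes called before injury was called after it. The difference between the contrasts was tested with an interaction of strain and injury over the 14 libraries without replicate 4 of the uninjured groups. None of 16391 genes had an adjusted p under 0.05 with edgeR, and 1735 had an unadjusted p under 0.05. The interaction was lowest in p among named genes for Lgr6 (interaction on the log2 scale -8.68, adjusted p = 0.0906) and H2-Q7 (adjusted p = 0.0906, with no size since its C57 libraries before injury were at 0), followed by Mmp2 (interaction on the log2 scale 2.44, adjusted p = 0.105), so that a change of the strain difference with injury was not shown for any gene.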

How the data were processed

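Tendon RNA of 16 mice was sequenced as single-end reads. The labels name the TruSeq kit, whereas the study's methods describe pre-amplification of 1 ng RNA with a SMARTer kit and NexteraXT libraries, without molecular identifiers, so counting error alone understates technical error. The authors trimmed reads with Trimmomatic 0.36, mapped both strains with STAR 2.5.2b to GRCm38.p5, and deposited raw whole-number counts, not normalized, under 49568 gene symbols. Submitters' processing notes name Subread 1.5.0p3 with featureCounts, and DESeq2 1.14.1. Which annotation was counted, and whether by strand, is not given in the sources used here, so overlapping, antisense and near-identical genes are uncertain.

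Groups came from the labels, and the methods give separate animals. Fits used edgeR 4.0.16 in R 4.3.3 (filterByExpr, TMM, robust quasi-likelihood test, Benjamini-Hochberg adjustment over all genes tested), with calls at the study's criteria, adjusted p under 0.05 with a difference over 1 on the log2 scale. CPM were computed on TMM library sizes. Each standard error is the absolute log2 fold change over the square root of F. Only the groups compared entered each fit. The members and gene lists were chosen with earlier results of these data known. Genes named are, per list, up to 4 called members by smallest adjusted p or else the member with the smallest p, the 8 largest rises and 8 largest falls among calls that do not overlap and whose higher group has a mean of at least 50 normalized counts, and Scx, Mkx, Tnmd, Col1a1, Tgfb1 and 3 strain genes, Nnt, H2-Ea-ps and Ifi202b. Positions come from GENCODE M21 (GRCm38) for the 47206 symbols that match exactly 1 gene. Floors cover counting error only. The scripts were tested on simulated counts. Alternatives were DESeq2 1.42.0, upper-quartile factors, total counts, other filters, the replicate block, a shared spread and leaving out each library.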

Additional observations from a re-analysis of the deposited data

Results flagged for a closer look

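Of 234 sets of 4 uninjured libraries of 1 strain, each a named gene's CPM or a list's summed CPM, 68 (29.1%) held a library far from the other 3 by Dixon's criterion. Chance meets it in about 1 of 20 sets of unselected values, a rate that does not apply here, because most of the genes were named for calls made in replicates 1 to 3 without replicate 4. The library that stood apart was the one labelled C57 replicate 4 in 36, the one labelled MRL replicate 4 in 26 and another in 6. None of these values was used to move a library between groups, and their cause was not tested.

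In the library labelled C57 replicate 4, strain-dependent genes that the 3 other C57 libraries lacked were present. Rspo1 measured 48.0 CPM, Gm13394 56.3, Gm5611 11.1, Acaa1b 9.30, Gm6304 5.33, H2-Q7 4.81, H2-Q2 2.99, Gm14292 2.54, C1s2 1.76, H2-Ea-ps 1.30, C1rb 1.17 and Odf1 0.846 CPM, against at most 0.774 CPM in those 3 for any of these genes. Wif1 was at 1241 CPM against at most 472.9, and Lect1 at 27.0 CPM against at most 5.49. Markers of other cells were also apart, epidermis markers summing to 129790 CPM, proliferation genes to 304.2, T and NK cell markers to 37.8 and B cell markers to 24.9 CPM.

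In the same library the class II list summed to 578.5 CPM, with H2-Aa at 95.2, H2-Eb1 at 71.9 and Cd74 at 297.6 CPM, the Ifi200 family to 89.8 CPM and the Wnt list to 2311 CPM, all above the other C57 libraries. Igfbp3 at 114.4, Fgfr3 at 80.1 and H2-K1 at 275.2 CPM were above them too. Tendon and stroma values were below them. Tenocyte markers summed to 33573 CPM, fibroblast markers to 883.2, elastic fibre genes to 507.4, collagen processing genes to 2492, MHC class I genes to 1149 and complement genes to 1247 CPM, and Mkx was at 44.8, Bmp4 at 27.6 and Mfap5 at 10.2 CPM.

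In the library labelled MRL replicate 4, genes at 0 in the 3 other MRL libraries were present, with Rab6b at 21.2, Hba-a2 at 12.1, Trim12a at 11.9, Dsg2 at 7.34, Ankrd6 at 6.71, Cbs and Gpr39 at 5.84 each and Fgf20 at 5.61 CPM. Rspo1 and Acaa1b were at 0 there and Gm13394 at 0.079 CPM, while Lgr6 was at 34.7 and Ltbp2 at 46.0 CPM against at most 0.459 and 4.99 CPM. Matrix and immune genes lay above the other MRL libraries for Cilp at 6793, Spp1 at 8680, Mgp at 327.3, Thbs1 at 179.5, Tnfrsf11b at 124.5, H2-D1 at 1411, Gbp2 at 32.1 and Cxcl2 at 8.29 CPM. They lay below them for Isg20 at 23.4 and Masp1 at 19.4 CPM. Immediate early genes summed to 15181 CPM there, bone and mineralization genes to 9413 CPM and Hedgehog and Notch genes to 451.6 CPM, each above the other 3.

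The 6 others were neutrophil markers at 140.0 CPM and Cxcl2 at 23.6 CPM in C57 replicate 3, Fbln1 at 758.7 CPM in C57 replicate 2, blood endothelium markers at 102.4 CPM and H2-Ea-ps at 0.178 CPM in MRL replicate 3, and TGF-beta genes at 2311 CPM in MRL replicate 2.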

How the results depend on the processing

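For replicates 1 to 3, the 497 calls became 727 with DESeq2, 504 with upper-quartile factors, 498 with total counts, 534 without a filter and 421 with at least 10 counts in every library. With an adjusted p alone there were 785, with the injured libraries sharing the spread 295 and with the labels of all 8 uninjured libraries 0. Leaving out 1 library gave 296 to 432, of which 275 to 351 were among the 497. In every fit of replicates 1 to 3 each of the 497 genes that was tested kept its direction. Calls higher in MRL made up 59.6% of the 497, 53.2% with total counts and 67.2%, 65.9% and 67.5% without C57 replicate 1, 2 or 3, where the 201 lower calls fell to 97, 105 and 113.

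With the shared spread 1 cartilage gene, 3 Wnt genes, 0 class II genes and 4 complement genes were called, and with all 8 uninjured libraries 0 in each list. Leaving out 1 library gave 9 to 11 cartilage genes, 6 to 8 Wnt genes, 0 to 4 class II genes and 4 to 8 complement genes, and no filter left 2 class II genes. The fit of all 8 uninjured libraries had 64 calls with DESeq2, 1 without a filter, 1 with at least 10 counts in every library, and 0 to 3 when 1 library was left out. The injured contrast had 1157 calls with DESeq2 against 502, and 231 to 481 when 1 library was left out. Among named genes, 0 passed the interaction test, also with all 16 libraries. Mkx reversed to 0.25 with all 8 uninjured libraries, 0.13 without MRL replicate 2 and 0.02 without MRL replicate 3. Ifi202b reversed to -2.48 with all 8 uninjured libraries and to -0.41 without C57 replicate 1 and again -0.41 without C57 replicate 2. The fit without C57 replicate 3 gave 9.28, but with C57 at 0 there is only a bound, at least 25.8-fold higher in MRL. The shared spread ended the call of 30 named genes and the missing filter of 11, namely 6 matrix genes, Igfbp3, H2-Ab1, Cd74, Cxcl2 and Tnfrsf11b. The causes were not tested.

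The labels number the replicates alike in both strains. Deviations from the group means of same-numbered libraries correlated at -0.12, 0.02 and -0.08, and for all 8 libraries at -0.18, -0.04, -0.10 and -0.24. These values show no pairing, but with so few libraries in each group they cannot exclude one. With the replicate block 338 genes were called, 325 of them among the 497, and 0 class II genes, 0 genes with all 8 libraries. At the depth of these libraries, genes at 0 in 1 strain have only a bound for their fold, and those at 1 to 5 counts a ratio with a wide interval, both for counting error only.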

Other observations

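Some further values were chosen after they were seen. Pla2g2a, a secreted phospholipase whose gene is known to carry a frameshift in C57BL/6, measured 83.3, 62.02 and 88.3 CPM in C57 and 7838, 5868 and 4947 CPM in MRL (log2 fold change 6.31, standard error 0.23, adjusted p = 8.14e-07), and it was at 1669 CPM in the library labelled C57 replicate 4 and at 107 CPM in the library labelled MRL replicate 4. On chromosome 12, Serpina3n, an acute-phase protease inhibitor, measured 102, 89.5 and 125 CPM in C57 and 416, 390.2 and 763 CPM in MRL (log2 fold change 2.30, standard error 0.25, adjusted p = 0.000534), and 6 of the 10 genes tested in that window of 1 Mb were called. Cd34, a surface protein of fibroblasts and endothelium, measured 328, 332 and 329 CPM in C57 and 663, 724 and 743 CPM in MRL (log2 fold change 1.10, standard error 0.09, adjusted p = 0.000115), while fibroblast markers as a whole summed to 1932 to 2064 CPM in C57 and 2304 to 2607 CPM in MRL.

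Ribosomal protein genes were called lower in MRL in 7 of 84 tested (8.33%, against 1.41% of all genes tested) and higher in 0, with a median log2 fold change of -0.05 over the 84. Rpl26 measured 118, 114 and 141 CPM in C57 and 14.5, 19.6 and 18.1 CPM in MRL (log2 fold change -2.85, adjusted p = 1.15e-05, edgeR). Gm15772, which RefSeq lists with the synonym Rpl26, was at most at 0.153 CPM in C57 and measured 55.5, 74.7 and 61.0 CPM in MRL, a ratio of 552 (95% exact interval 236 to 1700) on 5 counts in C57 (adjusted p = 8.14e-07, edgeR). The sum of both was 118, 114 and 141 CPM in C57 and 70.0, 94.3 and 79.0 CPM in MRL. Whether reads of the other called ribosomal protein genes were assigned to near copies was not tested. The mitochondrial gene mt-Nd3 measured 3.002, 3.42 and 3.14 CPM in C57 and 0 in the 3 MRL libraries, and 2.45 CPM in the library labelled MRL replicate 4.

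Nnt, whose loss is known in C57BL/6J, was detected in every uninjured library and not called: it measured 22.3, 8.78 and 9.87 CPM in C57 and 22.4, 24.8 and 31.8 CPM in MRL (log2 fold change 0.93, standard error 0.36, adjusted p = 0.194), with the lowest MRL value just above the highest C57 value, and 1.04 CPM in the library labelled C57 replicate 4 and 6.79 CPM in the library labelled MRL replicate 4. Without C57 replicate 1 edgeR called Nnt higher in MRL (log2 fold change 1.49, adjusted p = 0.0358). Ifi202b had 1055 counts in the library labelled C57 replicate 4 and 0 in that labelled MRL replicate 4. H2-Ea-ps had 0 counts in 6 of the 8 uninjured libraries, 20 in the library labelled C57 replicate 4 and 3 in MRL replicate 3.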
